A study of Homo sapiens with 6 samples.

Results

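The genes described here are those of the NRF2 pathway and of iron storage in LN-229, a human cell line derived from glioblastoma. They were chosen by name from the deposited gene identifiers: NFE2L2, KEAP1, GCLC, GCLM, NQO1, HMOX1, SRXN1, FTH1 and FTL, 9 of the 58174 genes in each file. RNA was sequenced from 3 libraries labelled sh-JMJD1C and 3 labelled control-NC, called control here. By its usual reading the first label names a short hairpin RNA against JMJD1C, a member of the histone H3 lysine 9 demethylase family. Nuclear RNA had been enriched and ribosomal RNA removed in both groups before sequencing. Neither the hairpin sequence, the time after treatment nor the number of independent cultures is given in the labels, so p-values measure only the spread between these libraries, which may be technical.

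NRF2, the protein of NFE2L2, is a transcription factor that binds antioxidant response elements together with small MAF proteins. KEAP1 holds it in check as the adaptor of a CUL3 ubiquitin ligase, and oxidants or electrophiles that modify KEAP1 let NRF2 accumulate, so that much of this control acts on the protein rather than on NFE2L2 RNA. Its known targets in many human cells make glutathione, detoxify quinones, break down heme and store iron in ferritin, a shell of heavy (FTH1) and light (FTL) chains whose translation is also held back by iron regulatory proteins on an element near the start of the messages.

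Sequence near the transcript start was at hand in a RefSeq table (GRCh38.p14) for 7 of the 9 genes, in 9 windows of 250 bases before and 50 bases after a start; FTH1 and HMOX1 are named only. The core letters of an antioxidant response element, TGACNNNGC read on both strands, were found in 2 of these windows, one of GCLM and one of KEAP1. Of all 35116 windows in that table, 13.3% hold the same letters. Bases outside the windows were not searched, so a window without the letters does not show that its gene lacks such an element. The 250 bases upstream are shown for both genes because they carry the letters through which NRF2 is known to bind, which are given in capitals. The GCLM bases lie at chr1:93909431-93909680 on the minus strand, and the KEAP1 bases at chr19:10502772-10503021 on the minus strand.
GCLM: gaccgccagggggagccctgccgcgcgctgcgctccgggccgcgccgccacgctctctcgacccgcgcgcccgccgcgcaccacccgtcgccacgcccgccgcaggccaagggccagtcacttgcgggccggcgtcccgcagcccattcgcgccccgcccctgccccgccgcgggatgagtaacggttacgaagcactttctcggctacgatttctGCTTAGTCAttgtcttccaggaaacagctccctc
KEAP1: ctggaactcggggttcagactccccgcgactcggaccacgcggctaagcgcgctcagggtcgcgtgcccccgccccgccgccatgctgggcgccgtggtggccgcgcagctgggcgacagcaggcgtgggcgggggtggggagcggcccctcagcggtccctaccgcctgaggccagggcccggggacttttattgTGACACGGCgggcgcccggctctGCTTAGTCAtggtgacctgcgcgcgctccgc
In GCLM the letters GCTTAGTCA, which read TGACTAAGC on the other strand, lie 34 to 26 bases before the start. KEAP1 holds the same 9 letters 31 to 23 bases before the start at 10502771 and TGACACGGC 54 to 46 bases before it. The window of its other start, at 10503356, holds no match.

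The light chain window holds the letters of an iron responsive element loop, a C, any 5 bases, CAGTG and any base, at transcribed bases 33 to 44. They were searched on the transcribed strand in the 50 bases from the start, where 1.67% of all windows hold them. These bases, at chr19:48965332-48965358 on the plus strand, are shown because they mark the place where iron regulatory proteins are known to act on ferritin messages, with the loop letters in capitals.
FTL: tgtctcttgCTTCAACAGTGTttggac
A match of letters is a description of the sequence and was not tied to any value below.

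The libraries held few reads. Whole reads were recovered from the deposited FPKM (fragments scaled to gene length and library size), and the library totals that made the values whole were 1676755, 1919675 and 1660561 in sh-JMJD1C replicates 1, 2 and 3 and 544442, 2004255 and 2960454 in control replicates 1, 2 and 3. JMJD1C itself had 45.3, 8.33 and 24.1 reads per 1000000 reads of the library (RPM) in sh-JMJD1C libraries and 145, 114 and 236 RPM in control libraries, with no overlap between the groups. Its log2 fold change was -1.82 with an adjusted p of 0.118 by limma on FPKM and -2.49 with an adjusted p of 0.0254 by limma-voom on the recovered reads. The libraries differed in other RNA as well: RN7SL transcripts took 1.18%, 15.7% and 18.5% of the reads in sh-JMJD1C libraries and 0.378%, 0.590% and 1.77% in control libraries, mitochondrial genes took 1.33 to 12.6% in sh-JMJD1C libraries and 2.93 to 8.70% in control libraries, and 1 unnamed gene, ENSG00000281181, took 25.03% of control replicate 1. The nuclear RNA MALAT1 took 0.0915 to 0.292% of the reads in sh-JMJD1C libraries and 1.25 to 2.40% in control libraries. Of 9 glioma line markers, VIM, CD44 and EGFR were among the 4 detected in every library, S100B and OLIG2 had no read, and SOX2 and GFAP had 2 and 15 reads over all 6. Of 11 markers of other cell types, 5 had no read, PTPRC, PECAM1, ALB, RBFOX3 and MOG. The 11 summed to 1263 to 1804 RPM in sh-JMJD1C libraries and 478 to 878 RPM in control libraries, and without KRT18, an epithelial keratin, to 7.81 to 21.5 RPM in sh-JMJD1C libraries and 34.8 to 42.2 RPM in control libraries. The part of these differences in the results below was not tested.

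No gene of the 9 passed the threshold of 0.05 in the limma fit on FPKM, adjusted by Benjamini-Hochberg over 18383 genes, in which 8 of them were tested and 0.185% of all genes passed. None of the 8 passed with limma-voom on recovered reads either, where 5.53% of 11872 genes did. At an unadjusted p under 0.05 there were 3 of the 8 in each fit, NQO1, HMOX1 and FTL, all with higher levels in sh-JMJD1C libraries, against 19.9% of all genes on FPKM and 30.8% on reads. After scaling, the groups did not overlap for 5 of the 8 genes: KEAP1, NQO1, HMOX1 and FTL lay higher and GCLC lower in sh-JMJD1C libraries, against 12.2% of all genes tested on FPKM that lay higher and 14.5% that lay lower without overlap, 26.7% in both directions. Levels below are given as scaled RPM, that is RPM divided by a factor per library from the median ratio over genes. With library totals alone KEAP1, NQO1 and HMOX1 overlapped between the groups while GCLC and FTL did not. The share of all genes without overlap on that measure is not given here. By limma-voom with library totals the median log2 fold change of all genes was -0.52. The scaling also set the centre: the median log2 fold change of all genes was -0.16 on scaled FPKM and -0.08 on scaled reads, and that of the 8 genes was 0.30 and 0.37. Fewer cells with an RNA and less of it per cell cannot be told apart in such bulk libraries.

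**Figure D1:**
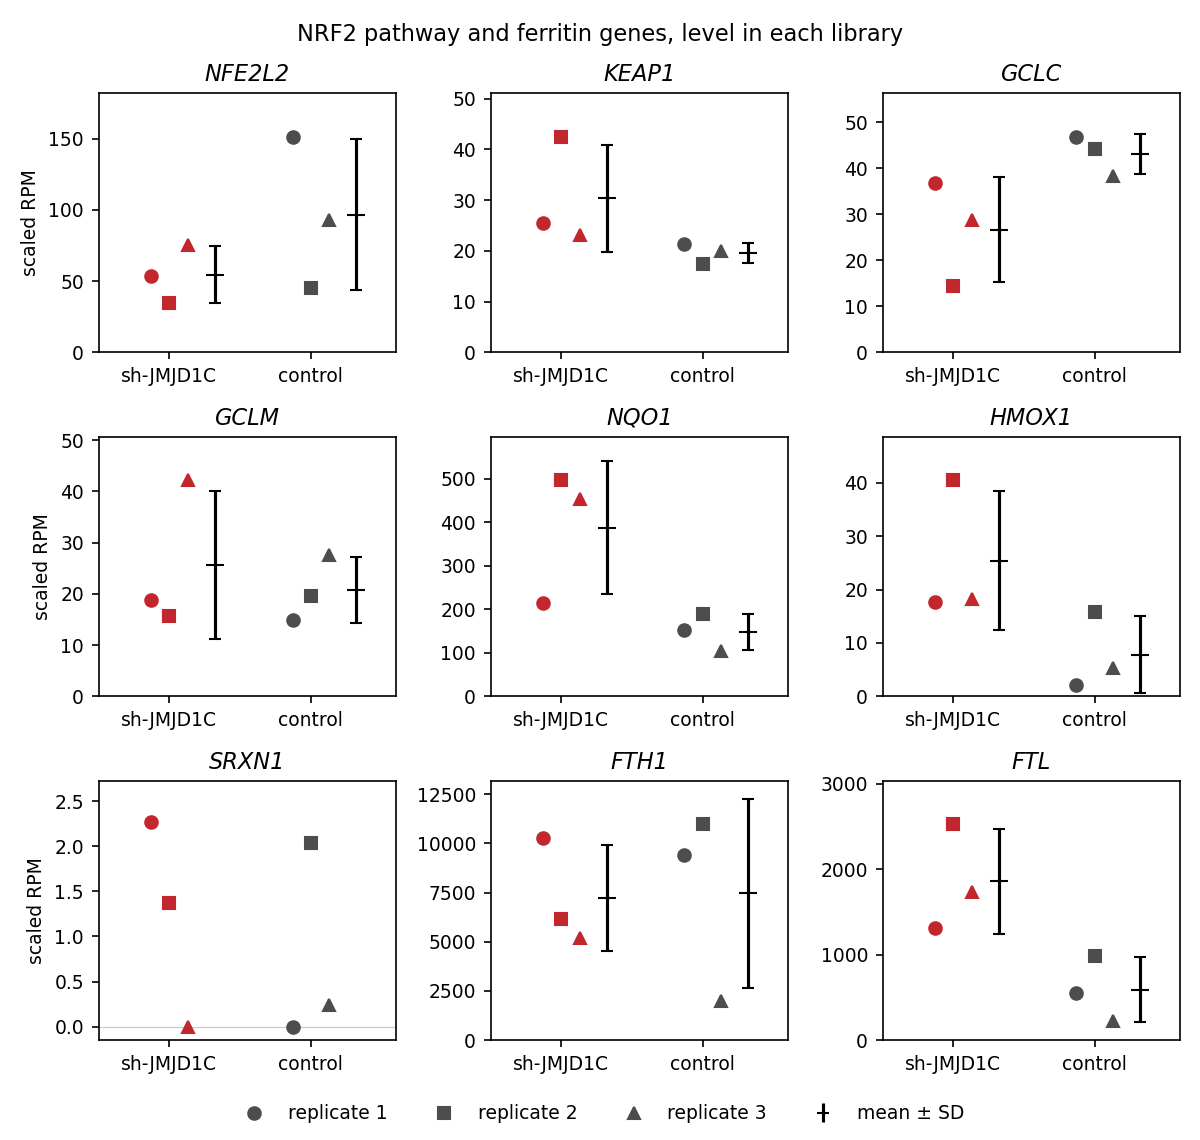
Level of each of the 9 genes in each library, in scaled RPM on linear axes, with sh-JMJD1C libraries left and control libraries right; symbols give the replicate number and bars the mean ± SD of 3 libraries, left out for SRXN1, which had no read in 2 libraries. KEAP1, NQO1, HMOX1 and FTL lie higher in all 3 sh-JMJD1C libraries and GCLC lower, while NFE2L2, GCLM, SRXN1 and FTH1 overlap.

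NFE2L2 (ENSG00000116044, hg38 chromosome 2, 177227595 to 177392697, minus strand), which encodes NRF2 itself, had 95, 51 and 107 reads in sh-JMJD1C replicates 1 to 3 and 71, 112 and 380 reads in control replicates 1 to 3. Scaled, these were 53.9, 35.0 and 75.1 RPM in sh-JMJD1C libraries and 151, 45.5 and 92.9 RPM in control libraries. Control replicate 1 was highest and sh-JMJD1C replicate 2 lowest, and control replicate 2 fell within the sh-JMJD1C libraries, so the groups overlapped. Means were 54.7 ± 20.1 RPM in sh-JMJD1C libraries and 96.6 ± 53.0 RPM in control libraries (SD, n = 3 each). The log2 fold change by limma on FPKM was -0.69 (95% interval -1.84 to 0.46) with an adjusted p of 0.451, and a negative sign was found in all 27 alternatives tried. Among other genes, the annotated gene shares 54 bases with AGPS on the opposite strand. It shares 109184 bases with ENSG00000213963 on the same strand, which had 60 reads over all libraries, 7.35% of those of NFE2L2. With ENSG00000271996 on the opposite strand, which had 48 reads (5.88%), it shares 4200 bases. Whether the authors counted by strand is not given in the sources used here.

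KEAP1 (ENSG00000079999, chromosome 19, 10486120 to 10503741, minus strand), the adaptor through which NRF2 is degraded, had 45, 62 and 33 reads in sh-JMJD1C libraries and 10, 43 and 82 reads in control libraries. The scaled levels were 25.5, 42.5 and 23.2 RPM in sh-JMJD1C libraries and 21.3, 17.5 and 20.04 RPM in control libraries. All 3 sh-JMJD1C libraries lay above all 3 control libraries, though sh-JMJD1C replicate 3 and control replicate 1 were close, and the order rested on the scaling. The difference did not pass the test: limma on FPKM gave a log2 fold change of 0.43 (-0.34 to 1.198) with an adjusted p of 0.487. KEAP1 reads per 100 NFE2L2 reads, a ratio that needs no scaling, were 47.4, 122 and 30.8 in sh-JMJD1C libraries and 14.1, 38.4 and 21.6 in control libraries. Control replicate 2 lay above sh-JMJD1C replicate 3 on this ratio, and a two-sided exact permutation test gave p = 0.20, where 3 against 3 cannot go below 0.10.

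GCLC and GCLM encode the catalytic and the modifier subunit of glutamate-cysteine ligase, the rate-limiting enzyme of glutathione synthesis. GCLC (ENSG00000001084, chromosome 6, 53497341 to 53616970, minus strand) had 65, 21 and 41 reads in sh-JMJD1C libraries and 22, 109 and 157 reads in control libraries. On the scaled level it had 36.9, 14.4 and 28.8 RPM in sh-JMJD1C libraries and 46.9, 44.3 and 38.4 RPM in control libraries. It was the only one of the 8 tested genes that lay lower in every sh-JMJD1C library. It did so by RPM without scaling too, where the median log2 fold change of all genes was -0.52 by limma-voom. On the scaled level sh-JMJD1C replicate 1 lay close to control replicate 3. GCLC had a log2 fold change of -0.62 (-1.46 to 0.23) by limma on FPKM with an adjusted p of 0.361, and -0.75 by limma-voom on reads with an adjusted p of 0.256. The lengths of its transcripts in GENCODE 29 sum to 27944 bases, but whole reads came out with 20981 bases, the smallest length that made all its values whole. The antisense gene GCLC-AS1 within GCLC had 26 reads over all libraries, 6.27% of those of GCLC.

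GCLM (ENSG00000023909, chromosome 1, 93885205 to 93909456, minus strand), whose upstream bases are shown above, had 33, 23 and 60 reads in sh-JMJD1C libraries and 7, 48 and 113 reads in control libraries. Its scaled levels of 18.7, 15.8 and 42.1 RPM in sh-JMJD1C libraries spanned those of 14.9, 19.5 and 27.6 RPM in control libraries almost wholly. The log2 fold change of 0.14 by limma on FPKM had an interval of -0.89 to 1.16 and an adjusted p of 0.872. Its sign turned in 7 of 27 alternatives, among them FPKM as deposited, reads scaled by library totals, and the fits without sh-JMJD1C replicate 3 or without control replicate 1, so no direction is given. GCLC reads per 100 GCLM reads were 197, 91.3 and 68.3 in sh-JMJD1C libraries and 314, 227 and 139 in control libraries. Sh-JMJD1C replicate 1 lay among the control libraries on this ratio, and the two-sided exact permutation test gave p = 0.20.

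NQO1 (ENSG00000181019, chromosome 16, 69706996 to 69726951, minus strand) encodes a quinone reductase that serves widely as a readout of NRF2. It had 376, 724 and 647 reads in sh-JMJD1C libraries and 71, 463 and 428 reads in control libraries. Scaled levels were 213, 496 and 454 RPM in sh-JMJD1C libraries and 151, 188 and 105 RPM in control libraries. All sh-JMJD1C libraries lay above all control libraries, with sh-JMJD1C replicate 1 close to control replicate 2 and sh-JMJD1C replicates 2 and 3 well apart. Means were 388 ± 153 RPM in sh-JMJD1C libraries and 148 ± 41.9 RPM in control libraries (SD, n = 3 each). Limma on FPKM gave a log2 fold change of 1.25 (0.20 to 2.31), unadjusted p 0.0261 and adjusted p 0.201. Limma-voom on reads gave 1.34 (0.40 to 2.27) with an adjusted p of 0.0720, and removing the trend of each library over transcript length left 1.22 with an adjusted p of 0.0882. Quantile normalization of FPKM left 0.66, the lowest value of the 27 alternatives. Without sh-JMJD1C replicate 1 the limma-voom value was 1.75 with an adjusted p of 0.0087, past the threshold, while 20.1% of all genes tested then passed. Without any other single library it did not pass, with values from 0.998 without control replicate 3 (adjusted p 0.258) to 1.53 without control replicate 2 (adjusted p 0.0607) by limma-voom. An antisense gene within NQO1 had 170 reads over all libraries, 6.28% of those of NQO1.

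HMOX1 (ENSG00000100292, chromosome 22, 35380361 to 35394214, plus strand) encodes the inducible heme oxygenase, which frees iron from heme. It had 31, 59 and 26 reads in sh-JMJD1C libraries and 1, 39 and 22 reads in control libraries. Scaled levels were 17.6, 40.4 and 18.3 RPM in sh-JMJD1C libraries and 2.13, 15.9 and 5.38 RPM in control libraries. The groups did not overlap, although control replicate 2 and sh-JMJD1C replicate 1 differed by less than the counting error of their reads. The single read of control replicate 1 gives an unscaled level of 1.84 RPM with an exact Poisson interval of 0.0465 to 10.2 RPM, which covers counting error only. The log2 fold change by limma on FPKM was 1.61 (0.17 to 3.05) with an unadjusted p of 0.0336 and an adjusted p of 0.222. On reads limma-voom gave 1.57 with an adjusted p of 0.113, and 0.98 with an adjusted p of 0.269 after removal of the length trend. A positive sign was found in all 27 alternatives, but single libraries moved the value: limma-voom gave 0.82 without control replicate 3 (adjusted p 0.519) and 2.21 without control replicate 2 (adjusted p 0.0590).

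SRXN1 (ENSG00000271303, chromosome 20, 646615 to 653370, minus strand) encodes sulfiredoxin, which restores overoxidised peroxiredoxins. It had 4, 2 and 0 reads in sh-JMJD1C libraries and 0, 5 and 1 reads in control libraries. These counts lie near the 3 reads that a count of 0 allows, which is 1.81 RPM in sh-JMJD1C replicate 3 and 5.51 RPM in control replicate 1. SRXN1 was below the filter on low values in both fits, and a difference was not detectable at this depth.

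**Figure D2:**
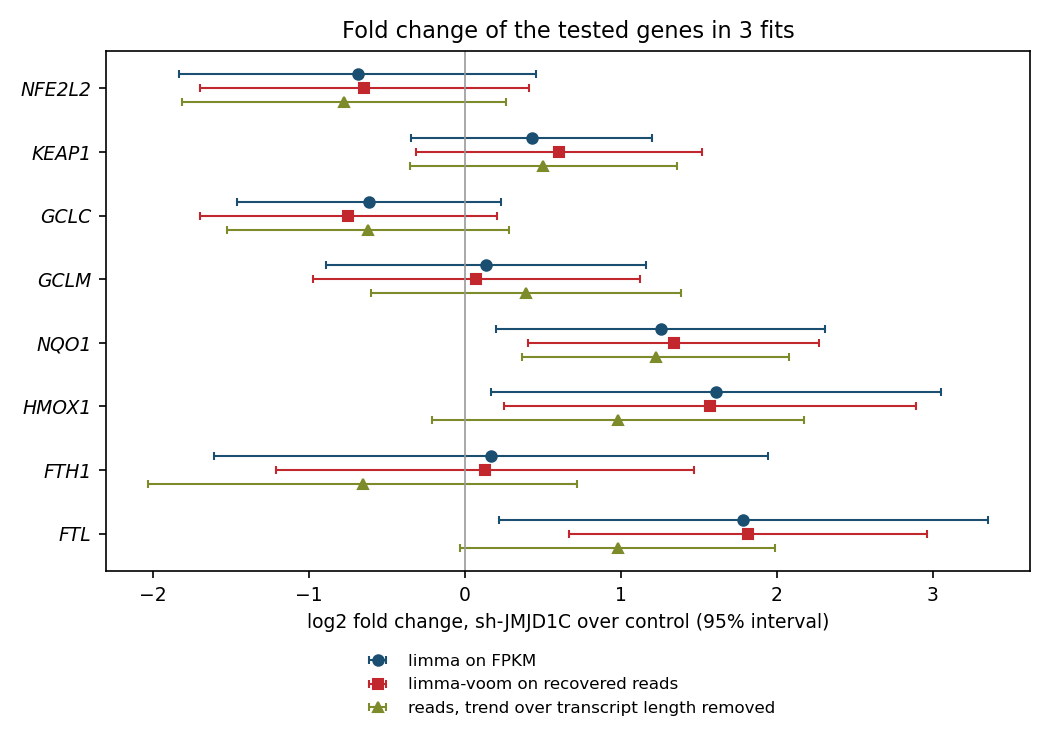
Log2 fold change, sh-JMJD1C over control, with its 95% interval for the 8 tested genes in 3 fits: limma on FPKM, limma-voom on recovered reads, and limma-voom on reads with the trend over transcript length removed. The intervals of NQO1 lie above 0 in all 3 fits; those of HMOX1 and FTL do so in the first 2 and reach below 0 in the last, and none of these adjusted p-values is under 0.05.

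The ferritin heavy chain oxidises iron for storage and the light chain helps to form the mineral core. FTH1 (ENSG00000167996, chromosome 11, 61959718 to 61967660, minus strand) had 18141, 8991 and 7395 reads in sh-JMJD1C libraries and 4414, 26983 and 8195 reads in control libraries. It was scaled to 10299, 6164 and 5193 RPM in sh-JMJD1C libraries and to 9413, 10972 and 2002 RPM in control libraries. Both the highest and the lowest library were controls, and the groups overlapped. The log2 fold change was 0.17 by limma on FPKM (-1.61 to 1.94), with an adjusted p of 0.911, and its sign turned in 9 of 27 alternatives: quantile normalization on FPKM gave -1.42, the length trend removed on reads -0.66, and leaving out sh-JMJD1C replicate 1 or control replicate 3 gave -0.12 and -0.63 on FPKM.

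FTL (ENSG00000087086, chromosome 19, 48965301 to 48966878, plus strand) had 2317, 3684 and 2474 reads in sh-JMJD1C libraries and 261, 2430 and 930 reads in control libraries. Scaled levels were 1315, 2526 and 1737 RPM in sh-JMJD1C libraries and 557, 988 and 227 RPM in control libraries. The groups did not overlap, with or without scaling. Means were 1859 ± 614 RPM in sh-JMJD1C libraries and 591 ± 382 RPM in control libraries (SD, n = 3 each). FTL gave a log2 fold change of 1.79 (0.22 to 3.35) by limma on FPKM with an unadjusted p of 0.0310 and an adjusted p of 0.213. Limma-voom on reads gave 1.82 (0.67 to 2.96) with an adjusted p of 0.0590, just above the threshold. FTL has a short transcript of 878 bases, and with the trend over transcript length removed limma-voom gave 0.98 with an adjusted p of 0.203, while quantile normalization of FPKM left 0.37. Limma-voom without sh-JMJD1C replicate 1 gave 2.07 with an adjusted p of 0.0300, and without control replicate 2 it gave 2.26 with an adjusted p of 0.0309, while 20.1% and 10.6% of all genes passed in these fits. Without control replicate 3 it gave 1.201 with an adjusted p of 0.199, and without sh-JMJD1C replicate 2 it gave 1.597 with an adjusted p of 0.224.

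The balance of the ferritin chains needs no scaling between libraries, and this ratio was added after the values of both genes had been seen. FTL reads per 100 FTH1 reads were 12.8, 41.0 and 33.5 in sh-JMJD1C libraries and 5.91, 9.01 and 11.4 in control libraries. Every sh-JMJD1C library lay above every control library, but sh-JMJD1C replicate 1 lay close to control replicate 3. The mean log2 ratio was 1.62 higher in sh-JMJD1C libraries, a 3.07-fold difference, and the two-sided exact permutation test gave p = 0.10, the smallest that 3 against 3 allows. Over 11 alternatives, including each library left out and pseudogene reads added, the log2 difference lay between 1.29 and 2.13. The share of RN7SL reads was also highest in sh-JMJD1C replicates 2 and 3, the libraries with the highest FTL, NQO1 and FTL to FTH1 ratio, and its part in these values was not tested. Together the chains took 1.22%, 0.660% and 0.594% of all reads in sh-JMJD1C libraries and 0.859%, 1.47% and 0.308% in control libraries, ranges that overlapped.

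**Figure D3:**
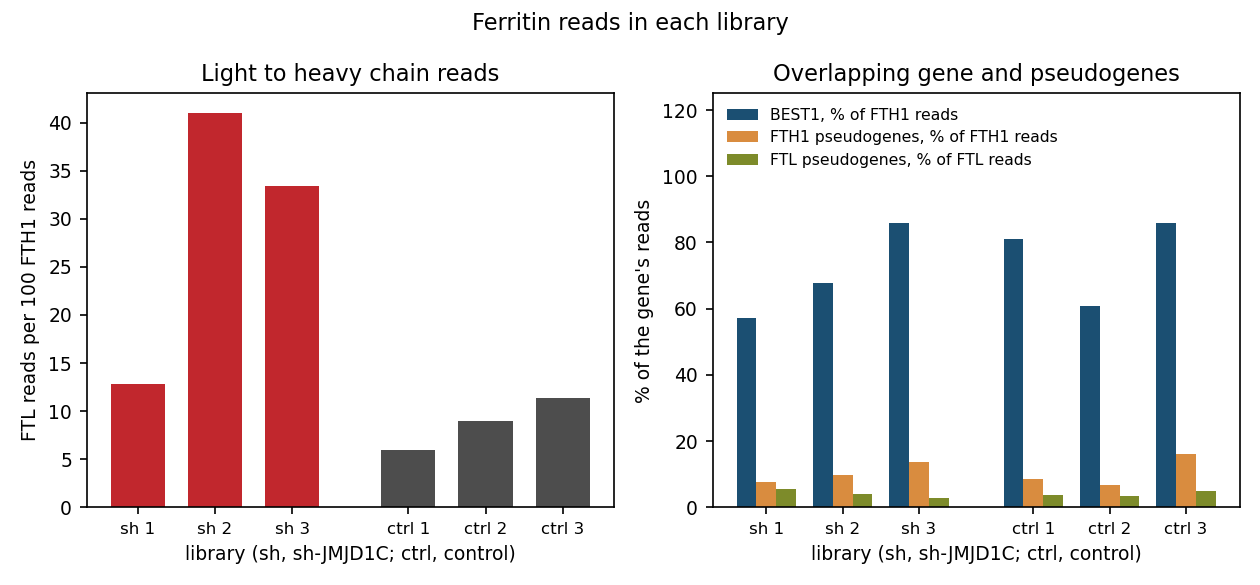
Left, FTL reads per 100 FTH1 reads in each library, sh-JMJD1C replicates 1 to 3 and then control replicates 1 to 3; the sh-JMJD1C bars reach 12.8 to 41.0 and the control bars 5.91 to 11.4. Right, reads of BEST1 and of FTH1 pseudogenes as percent of FTH1 reads, and reads of FTL pseudogenes as percent of FTL reads, in the same libraries; bars are single values.

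What was counted as FTH1 is uncertain in part. BEST1, a chloride channel gene best known from the retinal pigment epithelium, shares 5798 bases with it on the opposite strand and had 10385, 6105 and 6351 reads in sh-JMJD1C libraries and 3579, 16398 and 7036 reads in control libraries. That is 57.2 to 85.9% of the FTH1 reads in sh-JMJD1C libraries and 60.8 to 85.9% in control libraries, and without strand the reads of the pair cannot be told apart. Of 25 annotated FTH1 pseudogenes 18 had reads, adding to 7.55 to 13.6% of the FTH1 reads in sh-JMJD1C libraries and 6.70 to 16.3% in control libraries. Of 16 FTL pseudogenes 9 had reads, adding to 2.79 to 5.52% of the FTL reads in sh-JMJD1C libraries and 3.33 to 5.05% in control libraries. Since the copies are nearly identical, reads may have been divided between them by the authors' counting.

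The order of the chains depended on the length that a level was divided by. The deposited FPKM divide FTH1 by 9304 bases, the sum over its 12 annotated transcripts, and FTL by the 878 bases of its only one. FTL per 100 FTH1 on deposited FPKM was therefore 135, 434 and 355 in sh-JMJD1C libraries and 62.7, 95.4 and 120 in control libraries. Per base of the longest transcript, 1229 bases for FTH1, it was 17.9, 57.4 and 46.8 in sh-JMJD1C libraries and 8.28, 12.6 and 15.9 in control libraries. The light chain thus exceeded the heavy chain in 4 of 6 libraries by the first measure and in 0 of 6 by the second.

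On the scale of scaled RPM per kilobase of longest transcript, FTH1 led in both groups, with a mean level of 5874 ± 2206 in sh-JMJD1C libraries and 6072 ± 3899 in control libraries (SD, n = 3 each). FTL came next with 2118 ± 700 in sh-JMJD1C libraries and 673 ± 435 in control libraries, and after it NQO1 with 133 ± 52.4 in sh-JMJD1C libraries and 50.9 ± 14.4 in control libraries. Below them in sh-JMJD1C libraries were NFE2L2 at 19.2 ± 7.05, HMOX1 at 14.0 ± 7.14, KEAP1 at 10.3 ± 3.57, GCLC at 7.002 ± 2.99 and GCLM at 5.26 ± 2.97. The order in control libraries was NFE2L2 at 33.9 ± 18.6, GCLC at 11.3 ± 1.15, KEAP1 at 6.64 ± 0.661, HMOX1 at 4.27 ± 3.94 and GCLM at 4.26 ± 1.32. In sh-JMJD1C libraries the neighbours from NFE2L2 down to GCLM differed by less than the sum of their SDs. In control libraries NQO1 and NFE2L2 were likewise within that spread, as were KEAP1 and HMOX1, and HMOX1 and GCLM. GCLC exceeded KEAP1, and KEAP1 exceeded GCLM, by more than the sum of their SDs.

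Genes whose pattern over the 6 libraries was most like that of the regulator and of the heavy chain were read off by Pearson's r of log2 scaled RPM among 3345 protein-coding genes, as a description. For NFE2L2 they were HNRNPR (r = 0.985), TAF15 (r = 0.966) and PHKB (r = 0.962). HNRNPR had 157, 102 and 175 RPM in sh-JMJD1C libraries and 429, 135 and 247 RPM in control libraries, with the same highest and lowest library as NFE2L2. For FTH1 they were WBP2 (r = 0.989), RPL28 (r = 0.977) and the overlapping BEST1 (r = 0.970). RPL28, a protein of the large ribosomal subunit, had 1234, 742 and 478 RPM in sh-JMJD1C libraries and 827, 1150 and 233 RPM in control libraries.

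Around the 9 genes, 88 further genes of the pathway were set in 4 lists, of which 78 were tested on FPKM and 77 on reads. On FPKM limma called 0 of 78, beside 0.185% of all genes, and 29 had an unadjusted p under 0.05, beside 19.9% of all genes. On reads limma-voom called 8 higher in sh-JMJD1C libraries and 1 lower of 77, beside 3.71% of all genes higher and 1.81% lower, so calls of listed genes below are on reads. With the length trend removed the calls were 5 higher and 1 lower, beside 2.34% and 1.08% of all genes: GSTM3, GSTP1, AKR1B1, AKR1C3 and TKT higher and IDH1 lower, the last named after its values were seen. The count of 9 was 0 without sh-JMJD1C replicate 2, without sh-JMJD1C replicate 3, without control replicate 1 or without control replicate 3, where 31 to 99 of all genes were called. It was 22 of 76 without sh-JMJD1C replicate 1, 16 of 76 without control replicate 2 and 13 of 76 without both libraries numbered 1, beside 20.1%, 10.6% and 8.38% of all genes.

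Partners and regulators of NRF2, such as the MAF proteins, BACH1 and the CUL3 ligase, had 15 of 16 genes tested and 0 called by limma-voom on reads, with 7 at an unadjusted p under 0.05, beside 30.8% of all genes. Of the 15, 11 had a negative log2 fold change on reads, and the list median was -0.93 beside -0.08 for all genes. Without the trend over transcript length that median was -0.41. SQSTM1, whose protein p62 draws KEAP1 into autophagy, was the most-read gene of the list with a mean of 1052 ± 342 RPM in sh-JMJD1C libraries and 855 ± 330 RPM in control libraries (SD, n = 3 each). CREBBP, a coactivator that acetylates NRF2, had 333, 104 and 84.3 RPM in sh-JMJD1C libraries and 350, 401 and 166 RPM in control libraries. Neither passed: limma-voom gave an adjusted p of 0.635 for SQSTM1 and 0.218 for CREBBP.

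Of 20 genes of glutathione and thiol chemistry, 18 were tested and 5 were called higher by limma-voom on reads, beside 3.71% of all genes. None was called lower. The list median was 1.29, beside -0.08 for all genes, with 15 positive and 3 negative folds. SLC7A11 had 17.0, 21.3 and 57.6 RPM in sh-JMJD1C libraries and 96.0, 67.9 and 115 RPM in control libraries, without overlap. Its log2 fold change was -1.72 with an adjusted p of 0.0555 by limma-voom, and it was named after its values were seen. GSTP1, a glutathione S-transferase and target of NRF2 in many cells, had 448, 1944 and 1177 RPM in sh-JMJD1C libraries and 156, 237 and 101 RPM in control libraries. All sh-JMJD1C libraries lay above all control libraries, and its log2 fold change was 2.70 with an adjusted p of 0.0227 by limma-voom. GSTM3, another S-transferase, had 102, 375 and 405 RPM in sh-JMJD1C libraries and 44.8, 34.2 and 38.1 RPM in control libraries, a log2 fold change of 2.71. PRDX1, a peroxiredoxin that removes hydrogen peroxide, had 492, 1555 and 1589 RPM in sh-JMJD1C libraries and 224, 263 and 343 RPM in control libraries. Its log2 fold change of 1.99 passed, as did that of PRDX6, a peroxiredoxin that also acts on phospholipids, at 1.29. PRDX6 was the most even of the 5 over libraries, with 255, 274 and 288 RPM in sh-JMJD1C libraries and 107, 116 and 109 RPM in control libraries. GPX4, which reduces lipid peroxides with glutathione, had 279, 563 and 411 RPM in sh-JMJD1C libraries and 132, 182 and 49.4 RPM in control libraries, with a log2 fold change of 1.94 and an adjusted p of 0.0472 by limma-voom. With the trend over transcript length removed, limma-voom called 2 of these 5, GSTM3 and GSTP1.

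**Figure D4:**
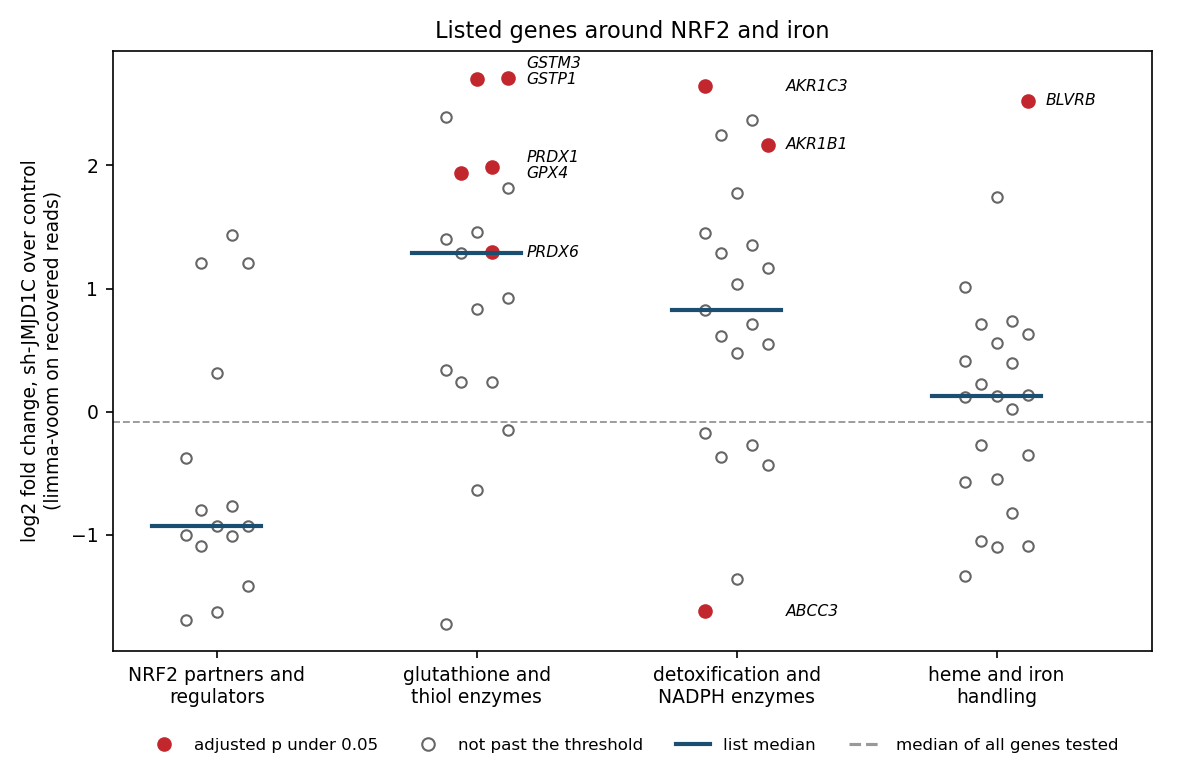
Log2 fold change, sh-JMJD1C over control, of the 77 listed genes tested by limma-voom on recovered reads, in 4 lists; filled points passed an adjusted p of 0.05, horizontal bars are list medians and the dashed line is the median of all genes tested. Filled points are 5 glutathione and thiol enzymes, AKR1B1, AKR1C3 and BLVRB above 0, and ABCC3 below.

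Of 24 enzymes and transporters of detoxification and NADPH supply, 21 were tested on reads. Limma-voom called 2 higher and 1 lower, beside 3.71% of all genes higher and 1.81% lower. The list median was 0.83, beside -0.08 for all genes. AKR1B1, the aldose reductase, had 97.6, 315 and 232 RPM in sh-JMJD1C libraries and 27.7, 44.7 and 51.1 RPM in control libraries, a log2 fold change of 2.17. AKR1C3, an aldo-keto reductase of steroids and quinones, had 34.1, 84.3 and 73.0 RPM in sh-JMJD1C libraries and 8.53, 15.04 and 6.35 RPM in control libraries, a log2 fold change of 2.64 with an adjusted p of 0.0245. It is a close paralog of AKR1C1 and AKR1C2, and how the authors' counting divided reads among them is not known. ABCC3, an exporter of organic anions and conjugates, was called lower, with 31.8, 28.1 and 21.1 RPM in sh-JMJD1C libraries and 68.2, 124 and 63.5 RPM in control libraries and a log2 fold change of -1.62. TKT, the transketolase and the most-read gene here, did not pass, with an adjusted p of 0.0792 by limma-voom. TKT had 1465, 3072 and 1990 RPM in sh-JMJD1C libraries and 930, 1093 and 586 RPM in control libraries, which did not overlap.

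Of 28 genes of heme and iron handling, 23 were tested and 1 was called higher by limma-voom on reads, beside 3.71% of all genes. The list median was 0.13, beside -0.08 for all genes. With the trend over transcript length removed, 0 of the 23 were called. The gene called on reads was BLVRB, a biliverdin reductase. It had 91.4, 297 and 185 RPM in sh-JMJD1C libraries and 53.3, 56.1 and 12.2 RPM in control libraries, a log2 fold change of 2.52. TFRC, the transferrin receptor that brings iron into the cell, averaged 401 ± 107 RPM in sh-JMJD1C libraries and 443 ± 280 RPM in control libraries (SD, n = 3 each). Its log2 fold change was 0.02, with an adjusted p of 0.978 by limma-voom. SLC39A14, an importer of zinc and iron not bound to transferrin, had 148, 114 and 112 RPM in sh-JMJD1C libraries and 183, 191 and 301 RPM in control libraries, without overlap, and an adjusted p of 0.153 by limma-voom. The iron exporter gene SLC40A1 had no read in any library, nor did FTMT, the ferritin of mitochondria.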

How the data were processed

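The authors deposited FPKM per gene for each of 6 libraries, in 10 columns that per the file headers hold rising shares of a library's reads; the last, the full library, was used. The submitters' processing notes name Bowtie 0.12.2 and hg38 without a role, and no source used here gives the counter or its use of strand. Whole reads were recovered from FPKM, gene length and library total. The summed length of all GENCODE 29 transcripts made the values whole within 0.01 of a read for 93.72% of the 29280 detected genes, and the smallest length that did so was taken for the rest. The recovered reads made 99.976 to 99.988% of the totals, and 3 reads equal 1.01 to 5.51 RPM. Symbols were matched by ID for 57392 of 58174 genes.

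The main test was limma 3.58.1 (R 4.3.3) with a trend on log2(scaled FPKM + 0.5), so folds of low genes are understated, over genes with mean FPKM of at least 0.5. Factors for FPKM were median ratios over genes with mean FPKM of at least 1. Those for reads and scaled RPM were median ratios over genes with mean reads of at least 20. Limma-voom on reads, over genes with at least 60 reads, was an alternative, as were other scalings, filters, pseudocounts, a lowess trend over longest transcript length (span 0.3) and libraries left out. Adjusted p-values are Benjamini-Hochberg over all genes of a fit. Permutation tests were two-sided over libraries. Scripts were tested on simulated data. The 9 genes and the lists were chosen with earlier results of these data known. All 9 genes were named, as were listed genes past 0.05 in either fit (up to 6 in each direction), the 2 most-read of each list (1 of them is not reported here), and for NFE2L2 and FTH1 the 3 genes most alike among those with at least 600 reads.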

Additional observations from a re-analysis of the deposited data

How the results depend on the processing

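Of the 9 genes, 0 were called on FPKM in every alternative. With limma-voom on reads 0 were called too, with exceptions given here beside the share of all genes called in the same fit. It called 2 of 8 without sh-JMJD1C replicate 1 (20.1%) and 1 of 8 without control replicate 2 (10.6%). With both libraries numbered 1 left out it called 1 of 8 (8.38%), and with a replicate block 3 of 8 (35.9%). NFE2L2 and GCLC kept a negative and KEAP1, NQO1, HMOX1 and FTL a positive log2 fold change in all 27 alternatives. NQO1 ranged from 0.66 to 1.77, HMOX1 from 0.82 to 2.21 and FTL from 0.37 to 2.27. The log2 fold change of FTH1 was -0.14 on FPKM as deposited, -1.42 with quantile normalization, and on reads -0.16 with library totals, -0.51 with quantile normalization and -0.66 with the length trend removed. That of GCLM was -0.13 on FPKM as deposited and -0.33 on reads with library totals. Without 1 library FTH1 ranged from -0.63 to 0.61 on FPKM and -0.66 to 0.49 on reads, and GCLM from -0.20 to 0.43 on FPKM and -0.33 to 0.35 on reads, with -0.12 for FTH1 without sh-JMJD1C replicate 1 and, for GCLM on reads, -0.014 without control replicate 1 and -0.032 without control replicate 2.

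Over all genes, 34 were called on FPKM, against 84 with a pseudocount of 0.1, 0 with 1, 0 with no filter, 79 on FPKM as deposited, 2 with quantile normalization, 911 among protein-coding genes only and 0 without both libraries numbered 1; without 1 library the count was 0 to 692. On reads it was 656, with library totals 1195, with quantile normalization 1021, with the length trend removed 406 and without both libraries numbered 1 948; without 1 library it was 31 to 2305, with 99 without sh-JMJD1C replicate 3 and 1187 without control replicate 2. Listed genes called were 0 of 78 on FPKM, beside 0.185% of all genes, and 11 of 78 among protein-coding genes only, beside 8.96%. On reads they were 9 of 77, beside 656 of 11872 genes. With library totals 13 of 77 were called, beside 1195 of 11872, and with quantile normalization 12, beside 1021. With the length trend removed 6 of 77 were called, beside 406 of 11872. Without both libraries numbered 1 it was 13 of 76 on reads, beside 8.38% of all genes. Without 1 library the count was 0 to 9 on FPKM and 0 to 22 on reads. Among these were 22 of 76 without sh-JMJD1C replicate 1 and 16 of 76 without control replicate 2, beside 20.1% and 10.6% of all genes. The cause of these moves was not tested. The ferritin ratio and its alternatives were added after seeing the data.

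Replicate numbers are shared between the groups. Deviations of same-numbered libraries correlated at 0.0234, 0.375 and 0.481 on reads for replicates 1, 2 and 3. Those of differently numbered libraries correlated at -0.571 to 0.1807 on reads. The pairs numbered 2 and 3 were thus the highest, on FPKM as well, while the pair numbered 1 lay within the range of differently numbered libraries. The labels state no pairing, its cause was not tested, and the main test assumed none. With the replicate number as a block, limma called 0 genes on FPKM and limma-voom 4260 on reads (35.9% of those tested). Among the latter were 3 of the 8 tested genes, NQO1 (1.35), HMOX1 (1.59) and FTL (1.85), and 37 of 77 listed genes.

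Depth limits the low genes: SRXN1 had 12 reads in all and HMOX1 a single read in control replicate 1. With 3 libraries a group, intervals are wide. Control replicate 1 had the fewest reads.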
